A study of Rattus norvegicus with 23 samples.

Results

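The genes described here are Tcf15, Meox2, Lpl, Gpihbp1, Cd36, Fabp4 and Fabp5, which serve the passage of fatty acids from blood across the capillary wall into heart muscle. They were picked by symbol from the table of normalized counts per library and from the authors' 2 deposited tables of comparisons. All 7 were present among the 10723 genes of the first table and the 11283 genes of the others, and all 7 passed the filter on low values. Tcf15 drew attention because its difference at 12 weeks had the 4th smallest p of 10633 genes tested, and the others were chosen with earlier results of these data known. Differences at 12 weeks are therefore given below as descriptions, without a test.

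The libraries hold polyadenylated RNA of rat myocardium (strain Sprague-Dawley). In the MI groups the left coronary artery had been tied off through a left thoracotomy to cause a myocardial infarction. The MI+TRD groups had the same infarction and, at a second operation, received an implanted device that the labels name TRD without describing it. There were 6 MI and 6 MI+TRD libraries at 12 weeks, and 6 MI and 5 MI+TRD libraries labelled as 6 weeks after operation. The protocol attached to the 6-week samples speaks of follow-up to 12 weeks, and the time used here is that of the treatment label. All of these rats had an infarct, and the labels give no operated rats without one, no age, no animal identifiers and no word on which part of the myocardium was taken.

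As background, lipoprotein lipase (Lpl) is made mainly by cardiomyocytes, and Gpihbp1 carries it through capillary endothelial cells to the vessel lumen, where it releases fatty acids from triglyceride-rich lipoproteins. The membrane receptor Cd36 and the small cytosolic carriers Fabp4 and Fabp5 then take fatty acids into and across the endothelium. In heart capillaries the transcription factors Meox2, a homeobox protein, and Tcf15, a basic helix-loop-helix protein, act as a pair that promotes the expression of Cd36, Lpl and other uptake genes.

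The promoters of both regulators are shown with that of Cd36, whose 12-week values differed from those of Tcf15 in direction. The RefSeq promoter table used here (build GRCr8) gave windows for 3 of the 7 genes. Each run is the 250 bases upstream of the annotated start, 5′ to 3′ on the plus strand, and capitals mark every match to the E-box CANNTG, the core motif of basic helix-loop-helix factors, which reads the same on both strands.
Tcf15, chr3:161099051-161099300: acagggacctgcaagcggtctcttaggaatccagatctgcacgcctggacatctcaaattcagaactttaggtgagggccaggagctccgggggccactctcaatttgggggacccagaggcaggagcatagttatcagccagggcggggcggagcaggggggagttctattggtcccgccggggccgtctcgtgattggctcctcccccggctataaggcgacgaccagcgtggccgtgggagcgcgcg
Meox2, chr6:59583775-59584024: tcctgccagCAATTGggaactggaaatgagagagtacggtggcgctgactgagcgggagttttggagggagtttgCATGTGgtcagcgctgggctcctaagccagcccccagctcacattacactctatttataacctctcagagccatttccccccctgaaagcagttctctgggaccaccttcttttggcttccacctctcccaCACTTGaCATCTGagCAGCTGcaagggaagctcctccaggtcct
Cd36, chr4:18246332-18246581: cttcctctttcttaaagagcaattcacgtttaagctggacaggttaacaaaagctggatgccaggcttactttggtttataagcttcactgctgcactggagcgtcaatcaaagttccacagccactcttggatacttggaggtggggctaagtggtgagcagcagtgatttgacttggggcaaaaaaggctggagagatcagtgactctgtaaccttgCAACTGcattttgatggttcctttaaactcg
The Tcf15 window held 0 such matches, that of Meox2 held 5 and that of Cd36 held 1, none of them overlapping another, while 65.5% of all 33469 windows of this length held at least 1. Of all windows, 99.08% had fewer matches than that of Meox2. The Tcf15 window was instead rich in G and C (63.2%, against a median of 51.2%) and held 2 matches to GGGCGG on either strand, a motif present in 30.5% of windows.

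Values per library exist here for the 12-week groups, as normalized counts, from which 7197118 to 10304156 reads per library were inferred. The fewest reads behind any value of the 7 genes were 80 (Gpihbp1 in MI+TRD replicate 5). MI+TRD replicates 1, 4 and 5 stood apart: the median deviation of genes spanning up to 2 kb, relative to all genes, was −0.52, −0.36 and −0.37 (log2), against −0.02 to 0.32 in the other 9 libraries, and 114 to 178 genes had 0 reads, against 13 to 75. MI+TRD replicate 6 stood apart in macrophage markers, with a summed level of 2160, where MI+TRD replicates 1 to 5 had 61.8 to 270 and the MI libraries 83.0 to 234. The median gene was −0.14 (log2) in MI+TRD on the deposited scale. Relative differences subtract this median. All differences at 12 weeks are MI+TRD minus MI on the log2(value + 0.229) scale, where 0.229 normalized counts is about 5 reads.

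Tcf15 (chromosome 3, 147643250 to 147649511, plus strand, rn6) was lower in every MI+TRD library than in any MI library at 12 weeks. Its normalized counts in MI replicates 1 to 6 were 23.8, 25.6, 16.6, 24.3, 20.1 and 18.7. In MI+TRD replicates 1 to 6 they were 8.74, 13.7, 12.3, 11.3, 6.199 and 13.6. The groups did not overlap, and the lowest values were those of MI+TRD replicates 5 and 1. The MI mean was 21.5 ± 3.58 and the MI+TRD mean 10.97 ± 2.97 (SD, n = 6 each), a log2 difference of −0.99 (SE 0.19) and a relative difference of −0.85. Without MI+TRD replicates 1, 4 and 5 the relative difference was −0.53, and the other 3 MI+TRD libraries, at 12.3 to 13.7, were still below the lowest MI library. Of all genes, 1.59% had MI+TRD wholly below MI and 0.113% wholly above, and of the 7 only Tcf15 had groups that did not overlap. Over the whole table, no gene passed in limma at an adjusted p of 0.05 (0 of 10633, 0%), where 2034 were lower and 298 higher before adjustment (unadjusted p under 0.05), while edgeR called 0 (0%) and DESeq2 18 (0.261%).

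Meox2 (chromosome 6, 56625768 to 56689196, plus strand), the partner of Tcf15, had overlapping groups at 12 weeks. Its normalized count ran from 7.57 over a median of 12.0 to 13.7 in MI, and from 8.45 over a median of 11.6 to 15.4 in MI+TRD. The means were 11.03 ± 2.49 and 11.7 ± 2.36 (SD, n = 6 each), with a relative difference of 0.23 (SE 0.18). The difference was smaller than the SD of either group. Without MI+TRD replicates 1, 4 and 5 it was 0.03.

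Gpihbp1 (chromosome 7, 116632496 to 116635544, plus strand), the shuttle of the lipase, had all 6 MI+TRD values under the mean of MI. In MI replicates 1 to 6 it measured 39.6, 29.0, 14.0, 27.6, 23.2 and 24.2. In MI+TRD replicates 1 to 6 it measured 10.9, 21.2, 13.9, 12.4, 3.18 and 20.3. The groups overlapped only through MI replicate 3, which was lower than MI+TRD replicates 2 and 6. The means were 26.3 ± 8.38 and 13.7 ± 6.63 (SD, n = 6 each), a relative difference of −0.94 (SE 0.37). It was −0.56 without MI+TRD replicate 5 and −0.31 without MI+TRD replicates 1, 4 and 5.

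Lpl itself (chromosome 16, 22537687 to 22561488, minus strand) leaned the other way. It measured 1078, 795, 1370, 1257, 977 and 1511 in MI replicates 1 to 6, and 1889, 1007, 1267, 1822, 1702 and 954 in MI+TRD replicates 1 to 6. MI+TRD replicates 1, 4 and 5 were above every MI library, while replicates 2, 3 and 6 lay within the MI range. The means were 1165 ± 265 and 1440 ± 417 (SD, n = 6 each), with a relative difference of 0.43 (SE 0.22), and 0.06 without those 3 libraries.

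Among the carriers, Fabp4 (chromosome 2, 93792666 to 93797268, plus strand) likewise had all 6 MI+TRD values under the mean of MI. It measured 153, 186, 156, 183, 121 and 111 in MI replicates 1 to 6. In MI+TRD replicates 1 to 6 it measured 71.9, 119, 99.5, 93.6, 67.2 and 127. In the MI+TRD group, 4 libraries were below every MI library, and replicates 2 and 6 were within the MI range. The means were 152 ± 30.8 and 96.3 ± 24.04 (SD, n = 6 each), a relative difference of −0.53 (SE 0.18), and −0.23 without MI+TRD replicates 1, 4 and 5.

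Fabp5 (chromosome 2, 93981662 to 93985320, minus strand), the neighbour and relative of Fabp4, ran from 11.2 over a median of 16.8 to 21.1 in MI, and from 6.83 over a median of 12.2 to 26.5 in MI+TRD. Its 3 lowest MI+TRD values, 6.83 to 9.49, were those of replicates 1, 4 and 5, and its highest was that of replicate 6. The means were 16.8 ± 3.66 and 13.7 ± 7.46 (SD, n = 6 each), with a relative difference of −0.28 (SE 0.29). The difference changed direction with the libraries kept, to 0.34 without MI+TRD replicates 1, 4 and 5 and −0.47 without MI+TRD replicate 6. Macrophages also express Fabp5, and in replicate 6 the macrophage markers Lyz2 and Cd68 measured 1556 and 47.8, against at most 74.7 and 3.60 in MI+TRD replicates 1 to 5. Their part in the result was not tested.

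Cd36 (chromosome 4, 14039977 to 14241272, plus strand) measured 262, 233, 486, 272, 445 and 304 in MI replicates 1 to 6. In MI+TRD replicates 1 to 6 it measured 544, 233, 445, 481, 429 and 474. The groups overlapped over nearly their whole range: MI replicates 3 and 5, at 486 and 445, lay among the higher MI+TRD values, and MI+TRD replicate 2 was as low as the lowest MI library. The means were 333 ± 105 and 434 ± 106 (SD, n = 6 each), a relative difference of 0.53 (SE 0.23), and 0.34 without MI+TRD replicates 1, 4 and 5.

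**Figure D1:**
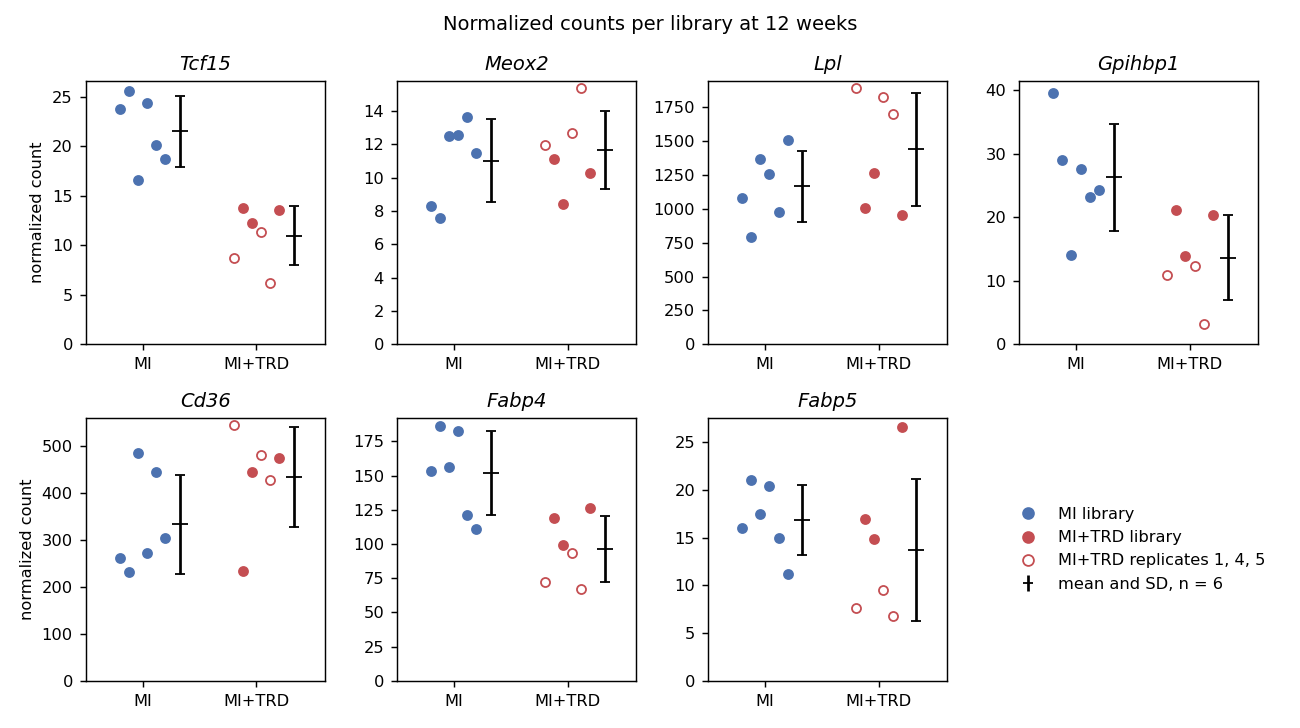
Normalized counts of the 7 genes (vertical axes, each from 0) in each 12-week library, by group, with the mean and SD of 6 libraries beside the points. Open points are MI+TRD replicates 1, 4 and 5. Tcf15 is the gene whose groups do not overlap, with MI+TRD at 6.199 to 13.7 and MI at 16.6 to 25.6.

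Gene span moved with these differences at 12 weeks. Relative to all genes, the median log2 difference was −0.29 for the 352 genes spanning up to 2 kb and 0.15 for the 1409 genes spanning 50 to 100 kb. The 4 genes that lay lower span 3.05 to 6.26 kb, and Lpl, Meox2 and Cd36 span 23.8, 63.4 and 201 kb. Genes of 5 to 10 kb, the class of Tcf15, had a median of −0.13 (n = 1493), and those of 2 to 5 kb, the class of Gpihbp1, Fabp4 and Fabp5, one of −0.21 (n = 1110). With the trend over span taken out of each library, the relative differences were −0.69 for Tcf15, −0.71 for Gpihbp1, −0.34 for Fabp4 and −0.07 for Fabp5, against 0.40 for Lpl, 0.38 for Cd36 and 0.09 for Meox2.

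The 6-week groups ask the same question in other samples, which the 12-week difference did not use, through the authors' deposited table. In that table, 0 of 11283 genes (0%) had a false discovery rate below 0.05, while 462 were lower (4.09%) and 499 higher (4.42%) at a p below 0.05. Tcf15 had a least-squares mean of 27.9 in MI and 16.7 in MI+TRD in the authors' deposited table, a ratio of 0.599 (p = 0.000863, false discovery rate 0.286, the 34th smallest p). Meox2 had means of 18.3 and 12.2 in the authors' deposited table, a ratio of 0.665 (p = 0.00610, false discovery rate 0.373). Fabp4 had means of 203 and 126 in the authors' deposited table, a ratio of 0.621 (p = 0.0170, false discovery rate 0.445). In the authors' deposited table both regulators and Fabp4 were thus the 3 of the 7 genes that were lower at a p below 0.05, and none passed over all genes. These 6-week values too were known when the 7 genes were chosen.

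The other 4 genes did not reach a p of 0.05 at 6 weeks. Gpihbp1 had means of 29.97 and 19.3 in the authors' deposited table, a ratio of 0.644 (p = 0.202), close in size to the others but with a larger p. Lpl, Cd36 and Fabp5 had ratios of 0.994 (p = 0.809), 1.08 (p = 0.785) and 1.002 (p = 0.962) in the authors' deposited table. The median ratio of all genes at 6 weeks corresponds to −0.04 (log2), so that relative to it, in the authors' deposited table, Tcf15 was −0.70, Fabp4 −0.65, Gpihbp1 −0.60 and Meox2 −0.55. Gene span did not move with the 6-week differences, since the medians of 8 span classes lay between −0.05 and 0.01. Whether any gene differed between 6 and 12 weeks in its response was not tested, because the 6-week comparison was read from group means and the tables may be scaled separately.

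**Figure D2:**
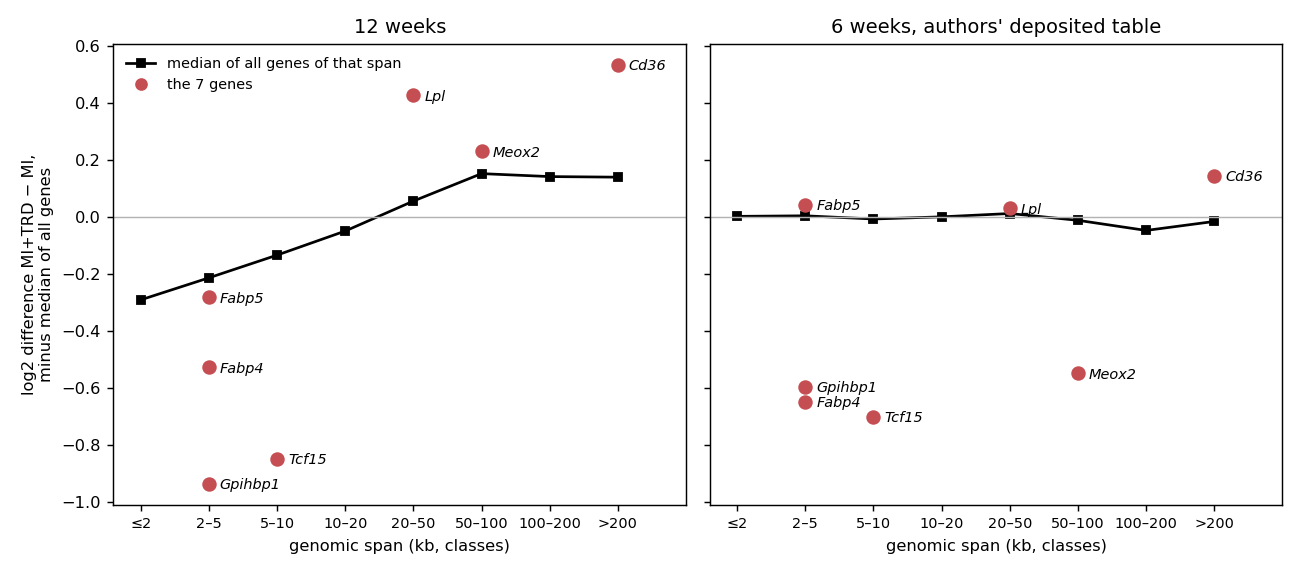
Relative log2 difference between MI+TRD and MI (vertical axis) against classes of genomic span in kb (horizontal axis), at 12 weeks on the left and in the authors' 6-week table on the right. Black squares are medians of all genes of a class, which run from −0.29 to 0.15 at 12 weeks and from −0.05 to 0.01 at 6 weeks, and red points are the 7 genes.

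Endothelial markers give the tissue context of these genes. Robo4, Pecam1, Cdh5, Kdr and others made up 19 measured markers of 22 listed, all of them above 0 reads in every library but Robo4, which was at 0 reads in 5. At 12 weeks their relative median was −0.14. At an unadjusted limma p below 0.05, 7 were lower and 0 higher, against 19.1% and 2.80% of all genes, and 0 passed the adjusted threshold (limma). Those 7 lower genes were Robo4 (−1.38), Egfl7 (−0.79), Esam (−0.41), Rgcc (−0.40), Aqp1 (−0.32), Emcn (−0.27) and Sox7 (−0.20). Over all genes the split turned with the scaling, from 2034 lower and 298 higher to 412 and 1207 with equal totals. For these markers it was not computed under other scalings. The summed level of the 19 markers was 1480 to 2275 in MI and 1352 to 2085 in MI+TRD. The pan-endothelial genes Pecam1, a junctional adhesion protein, and Cdh5, the endothelial cadherin, had relative differences of −0.01 (SE 0.17) and 0.13 (SE 0.20), and the VEGF receptor Kdr 0.17 (SE 0.28). At 6 weeks the relative median of the markers was −0.38 in the authors' deposited table. There 5 were lower (Tie1, Tek, Kdr, Emcn and Aqp1) and 0 higher at a p below 0.05, against 4.09% and 4.42% of all genes. Only Robo4 of the 19 lay below Tcf15 at 6 weeks, and only Robo4 did so at 12 weeks. In bulk tissue, fewer endothelial cells and less RNA per endothelial cell cannot be told apart.

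**Figure D3:**
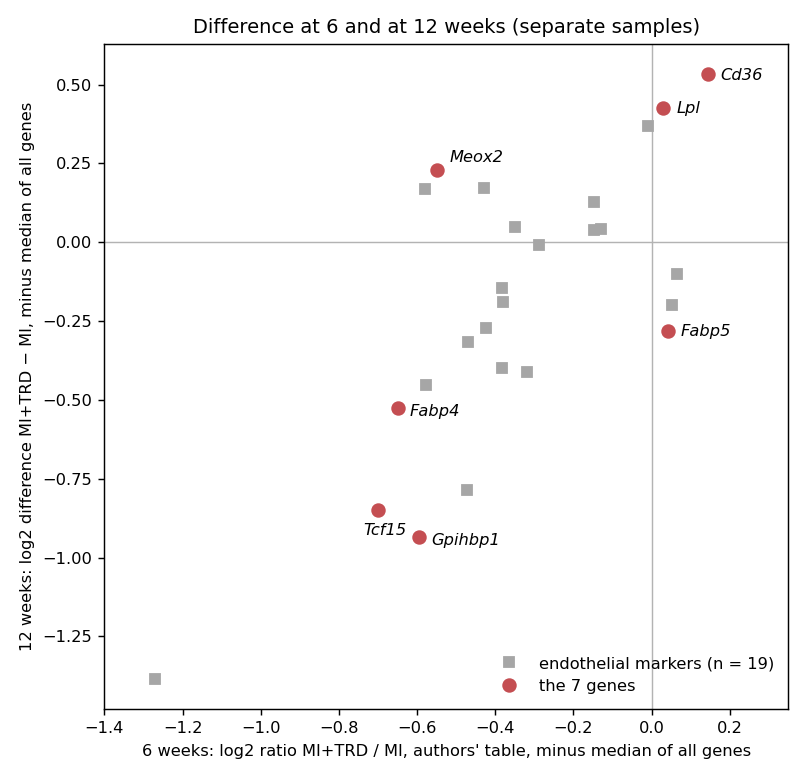
Relative log2 difference between MI+TRD and MI at 6 weeks from the authors' deposited table (horizontal axis) and at 12 weeks (vertical axis), for the 7 genes in red and 19 endothelial markers in grey. Tcf15, at −0.70 and −0.85, Gpihbp1, at −0.60 and −0.94, and Fabp4, at −0.65 and −0.53, are low at both times, while Meox2 is at −0.55 and 0.23.

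Set against the mean log2 level of these 19 markers in the same library, Tcf15 was nearly constant in MI. Its distance from the markers was −1.27 to −1.12 over the 6 MI libraries (SD 0.056), whereas the SD of the other 6 genes in MI lay between 0.28 and 0.68. In MI+TRD the distance was −1.33, −1.51 and −1.44 in replicates 2, 3 and 6 and −2.29, −2.03 and −2.48 in replicates 1, 4 and 5. This distance uses the same Tcf15 values by which the gene was noticed, and no share over all genes was computed for it. MI+TRD replicate 2, at −1.33, lay close to the lowest MI library, at −1.27. The marker mean includes Robo4, which was at 0 reads in 5 libraries. The markers span 1428 bp (Cldn5) to 805593 bp (Robo4), and only Cldn5, Sox17 and Sox18 span less than Tcf15 (6262 bp). In MI+TRD replicates 1, 4 and 5, short genes deviated from all genes by −0.52, −0.36 and −0.37 (log2). Long genes deviated there by 0.19, 0.18 and 0.20. The part of gene span in the distance of Tcf15 from the markers was not tested. The mean distance for MI was −1.19 ± 0.06, and for MI+TRD −1.85 ± 0.49 (SD, n = 6 each).

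The other genes were set against the same markers, and the part of gene span in their distances was not tested either. Gpihbp1 lay −0.96 ± 0.28 from the markers in MI and −1.70 ± 0.98 in MI+TRD, and Fabp4 lay 1.603 ± 0.28 and 1.27 ± 0.46 (SD, n = 6 each). Cd36 and Lpl lay higher relative to the markers in MI+TRD, by 0.73 and 0.62. For Fabp5 and Meox2 the shifts were −0.09 and 0.42.

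**Figure D4:**
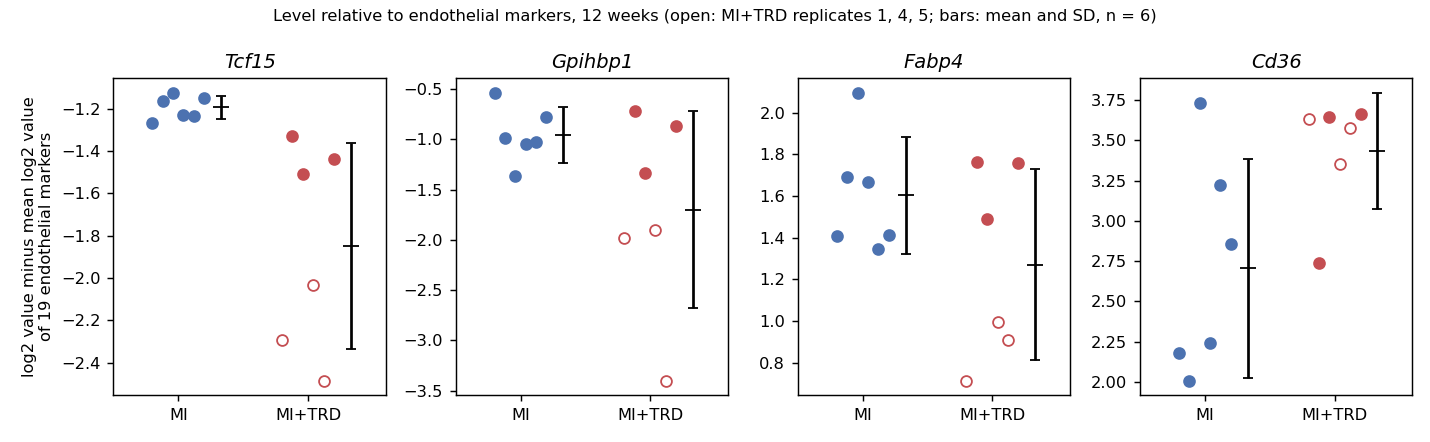
Log2 level of Tcf15, Gpihbp1, Fabp4 and Cd36 minus the mean log2 level of 19 endothelial markers (vertical axes) in each 12-week library, by group, with mean and SD of 6 libraries. Open points are MI+TRD replicates 1, 4 and 5. Tcf15 spans −1.27 to −1.12 in MI and −2.48 to −1.33 in MI+TRD.

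Within groups, Gpihbp1, Fabp4 and Fabp5 varied with Tcf15, and Lpl, Meox2 and Cd36 against it, a division that was also one of gene span. After each group mean was subtracted, Gpihbp1 followed Tcf15 over the 12 libraries with a Pearson r of 0.93 and a Spearman rho of 0.93 (within-group permutation p = 9e-05 and 0.00025, adjusted over 6 relations 0.00054 and 0.0015). Fabp4 had r = 0.82 and rho = 0.87 (permutation p = 0.0022 and 0.00127, adjusted 0.0066 and 0.00338). Fabp5 had r = 0.79 and rho = 0.87 (permutation p = 0.00755 and 0.00169, adjusted 0.0151 and 0.00338). Lpl and Meox2 ran against Tcf15, with r = −0.70 and −0.67 and rho = −0.78 and −0.66 (permutation p for r 0.02 and 0.019, adjusted 0.024 for both; for rho 0.0091 and 0.0196, adjusted 0.0136 and 0.0235). Cd36 had r = −0.51 and rho = −0.57 (permutation p = 0.103 and 0.0461, adjusted 0.103 and 0.0461).

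MI+TRD replicates 5 and 1 were the 2 libraries farthest from the median of Tcf15. Without them r was 0.85 for Gpihbp1 (permutation p adjusted 0.0172), 0.67 for Fabp4 (0.0914) and 0.57 for Fabp5 (0.0723). It was −0.70 for Lpl (0.0531), −0.56 for Meox2 (0.163) and −0.73 for Cd36 (0.0531). With 10 libraries left, only the r of Gpihbp1 passed. The r of Fabp4, Fabp5 and Meox2 kept their sign at a smaller size, while that of Lpl kept its size and missed the threshold. For Gpihbp1 rho was then 0.73 (permutation p adjusted 0.0535). Without MI+TRD replicates 1, 4 and 5, Gpihbp1 had r = 0.83 (permutation p adjusted 0.0491) and rho = 0.77 (0.108). With the trend over gene span taken out of each library, r was 0.92 for Gpihbp1 (permutation p adjusted 0.0221), 0.64 for Fabp4 (0.0831), 0.59 for Fabp5 (0.229), −0.55 for Meox2 (0.0634), −0.44 for Lpl (0.25) and −0.14 for Cd36 (0.658). In that setting no rho passed, including that of Gpihbp1 at 0.67 (permutation p adjusted 0.109). Within the 6 MI libraries alone the signs of r were the same for all 6 genes, from −0.85 for Cd36 to 0.83 for Gpihbp1. Fabp4, Fabp5 and Meox2 had r of 0.61, 0.56 and −0.63 there. None passed after adjustment over the 12 relations of both groups (exact permutation p adjusted 0.0708 for Gpihbp1 and 0.0799 for Cd36). Within the 6 MI+TRD libraries, which include replicates 1, 4 and 5, r passed for Gpihbp1 (0.96) and Fabp4 (0.94; exact permutation p adjusted 0.0167 for both). There Fabp5 (0.86, adjusted 0.0708), Meox2, Lpl and Cd36 did not pass. By rho only Gpihbp1 passed (adjusted 0.0334).

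Over all 10632 other genes the median r with Tcf15 was 0.12, and 9.95% had an r over 0.7. The genes most like Tcf15 were Cd3eap (r = 0.96), Timm10b (0.95), Pop5 (0.95), Ak6 (0.95) and B4galt3 (0.94), over 12 libraries. Their spans were 3.28, 2.85, 4.51, 12.1 and 5.99 kb. Gpihbp1 ranked 9th, Fabp4 278th and Fabp5 441st. At the other end Cd36 ranked 9446th, Meox2 10223rd and Lpl 10339th of the 10632. The 5 genes most like Tcf15 had ratios of 1.13, 1.14, 0.951, 0.876 and 0.915 at 6 weeks in the authors' deposited table, where Tcf15 had 0.599.

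**Figure D5:**
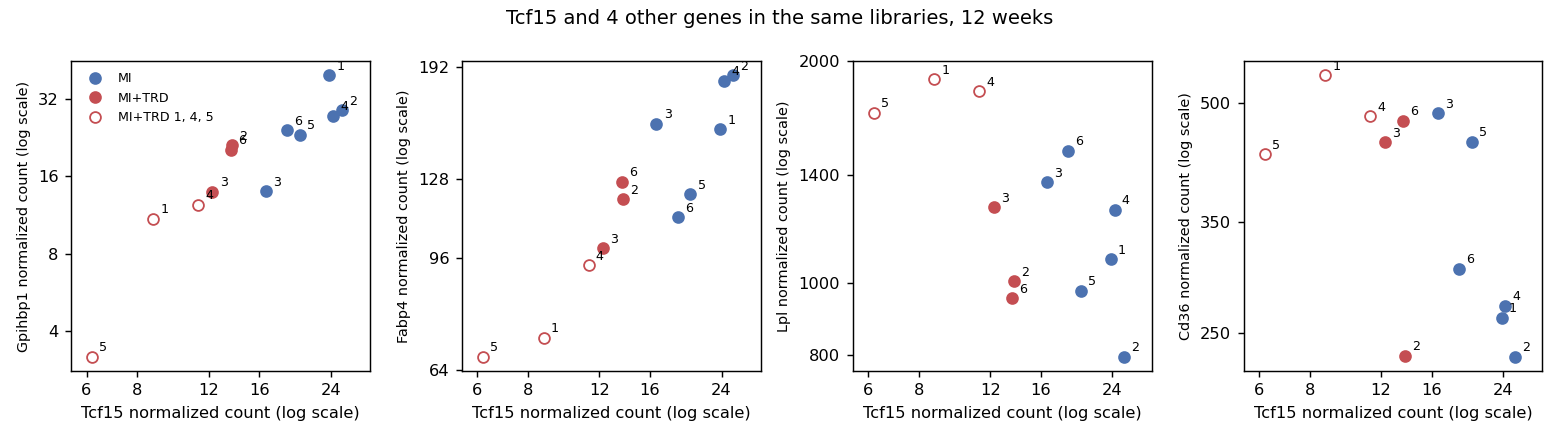
Normalized count of Tcf15 (horizontal axes, log scale) against Gpihbp1, Fabp4, Lpl and Cd36 (vertical axes, log scale) in the 12 libraries at 12 weeks, numbered by replicate. Gpihbp1 and Fabp4 are low where Tcf15 is low, down to 3.18 and 67.2 in MI+TRD replicate 5, while Lpl is high in MI+TRD replicates 1, 4 and 5, at 1702 to 1889.

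Genes around this pathway were taken from 4 lists by role, of which 47 of 53 genes were tested at 12 weeks. None passed an adjusted p of 0.05 with limma. At an unadjusted limma p below 0.05, 8 were lower and 3 higher, against 19.1% and 2.80% of all genes, a split that turned with the scaling (1 lower and 6 higher with median ratios, 0 and 10 with equal totals). The median relative difference was 0.01 for 12 fatty acid carriers and activating enzymes, 0.25 for 9 genes of lipase handling, 0.13 for 15 signals and nuclear factors and 0.13 for 11 partners and relatives of Tcf15. The median over all genes tested is 0 by construction.

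Of the carriers, the heart-type binding protein Fabp3 and Got2, an aspartate aminotransferase also found at the cell surface as a fatty acid binder, lay lowest. Fabp3 measured 1121 in MI and 724 in MI+TRD (relative difference −0.58, SE 0.27; limma adjusted p = 0.152), and Got2 560 and 364 (−0.54, SE 0.21; limma adjusted p = 0.132). Fabp3 spans 6730 bp, and all genes of 5 to 10 kb had a median of −0.13. The fatty acid transport proteins Slc27a1 and Slc27a4 had −0.06 and −0.06, the acyl-CoA synthetase Acsl1 0.10 and the caveolar coat gene Cav1 0.21. Another acyl-CoA synthetase, Acsl4, had the largest difference of this list and lay higher (0.96, SE 0.33, limma adjusted p = 0.169). At 6 weeks Fabp3 and Got2 had ratios of 0.913 and 1.05 in the authors' deposited table, and Cav1 had 0.715 (p = 0.0211).

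Among lipase regulators, the inhibitor Angptl4 varied widely, from 4.02 to 23.4 in MI and from 0.550 to 11.9 in MI+TRD (relative difference −0.79, SE 0.56). The lipoprotein receptor Vldlr had 0.53 (SE 0.20; limma adjusted p = 0.262). Vegfb, a growth factor that raises endothelial fatty acid transport through Flt1 and Nrp1, had −0.17 (SE 0.12), and those receptors 0.13 and −0.01. The nuclear receptors Pparg and Ppara, which respond to fatty acids, had 0.03 and 0.47. Apelin (Apln) and its receptor Aplnr had 0.23 and 0.13, the Notch ligand Dll4 −0.27, Notch1 0.12 and Foxo1 0.38. Of the signals and nuclear factors, Dll4 and Vegfb were lower at an unadjusted limma p below 0.05 (limma adjusted p = 0.145 and 0.163). Higher at that cut were Hif1a, the oxygen-regulated factor (0.85, SE 0.21, limma adjusted p = 0.132), and Rbpj, the DNA-binding partner of Notch (0.63, SE 0.17, limma adjusted p = 0.138). Dll4 and Vegfb span 9818 and 3626 bp, in classes with medians of −0.13 and −0.21 over all genes. Hif1a and Rbpj span 44867 and 76517 bp, in classes with medians of 0.06 and 0.15. Lower at a p below 0.05 at 6 weeks in the authors' deposited table were Aplnr (ratio 0.507, p = 0.0383), Dll4 (ratio 0.808, p = 0.0350) and Pparg (ratio 0.740, p = 0.0458). Higher in the authors' deposited table was Hif1a (ratio 1.51, p = 0.00861, false discovery rate 0.380).

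Tcf15 binds DNA with the widely expressed E proteins, and Id proteins block such pairs. The E-protein genes Tcf3, Tcf4 and Tcf12 had relative differences of −0.14, 0.29 and 0.13 at 12 weeks, with SEs of 0.19, 0.25 and 0.18. Id1 and Id3, which are expressed in endothelium, had −0.43 (SE 0.22) and −0.46 (SE 0.23), with a limma adjusted p of 0.152 and 0.154. Id2 and Id4 lay the other way, at 0.30 (SE 0.28) and 0.75 (SE 0.32). Id1, Id3 and Id2 span 1129, 1571 and 1833 bp, and all genes of up to 2 kb had a median of −0.29. Meox1, the relative of Meox2, had 0.24 (SE 0.43). In the authors' deposited 6-week table Tcf3 had a ratio of 0.732 (p = 0.0346), Id1 0.948 and Id3 1.01. Over the 4 lists at 6 weeks, 5 of 48 genes were lower and 4 higher at a p below 0.05, against 4.09% and 4.42% of all genes, and 0 had a false discovery rate below 0.05.

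Fat cells also express Fabp4, Cd36 and Lpl, so their markers were read beside these genes. Adiponectin (Adipoq) ranged from 0.0540 to 18.2 in MI and from 0.04996 to 7.61 in MI+TRD, and the lipid droplet genes Plin1 and Cidec were at 0 reads in 5 libraries each. The library highest in Adipoq, MI replicate 2, had the highest Fabp4 of all libraries (186), and MI replicate 4, at 0 reads of Adipoq, had 183. The library with the second highest Adipoq, MI+TRD replicate 5, had the lowest Fabp4 (67.2). The 9 measured markers had summed levels of 56.6 to 152 in MI and 38.1 to 80.0 in MI+TRD, with Adipoq, Plin1, Cidec and Retn at 0 reads in at least 1 library. Their relative median at 12 weeks was −0.42, with 8 of 9 below 0 and the lipase Lipe at −0.42 (SE 0.15; limma adjusted p = 0.132), beside −0.53 for Fabp4. The SEs of Adipoq, Pck1, Cfd, Cidec and Plin1 were 1.02, 0.82, 0.76, 0.71 and 0.67. Within the sum, Lipe alone had means of 59.3 in MI and 40.5 in MI+TRD. At 6 weeks in the authors' deposited table, Lipe had a ratio of 0.682 (p = 0.00507, false discovery rate 0.373), and Adipoq had means of 0.182 and 1.47 (p = 0.443). The relative median of the 9 markers there was 1.33 (log2), beside −0.65 for Fabp4. Adipoq, Plin1, Cidec, Lep, Retn and Pck1 were near the floor, with means of 0.0833 to 0.276 in MI. The summed level of the 9 markers was 78.9 in MI and 66.6 in MI+TRD, of which Lipe alone had 66.9 and 45.6. The part of fat cells in the Fabp4 values was not tested.

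Markers of other cell types were read as well. At 12 weeks, 6 of 8 epicardial and mesothelial markers were higher at an unadjusted limma p below 0.05, against 2.80% of all genes. The 8 had a median relative difference of 1.44. Msln, Upk1b, Krt8, Krt18 and Krt19 were near the floor in MI, with means of 0.593, 0.188, 0.352, 0.292 and 0.120. Their MI+TRD values varied widely, with Msln at 12.7 ± 15.1 and Upk1b at 2.69 ± 3.72 (SD, n = 6 each). The haemoglobin gene Hba2 measured 88.3, 234 and 465 in MI+TRD replicates 1, 4 and 5, the 3 libraries lowest in Tcf15, and 0.498 to 25.7 elsewhere. The red cell genes Hba-a1, Alas2, Slc4a1 and Hbb had relative differences of 0.71, 0.50, 0.34 and 0.16. For Hbb the groups overlapped, at 66.7 to 307 in MI and 83.2 to 202 in MI+TRD. In the authors' deposited 6-week table Hba2 went the other way, with means of 291 in MI and 28.5 in MI+TRD (p = 0.632). At 6 weeks in the authors' deposited table, 11 of 12 macrophage markers were higher at a p below 0.05. So were 5 of 8 fibroblast markers, against 4.42% of all genes, and none of either list was lower. The summed macrophage level was 213 in MI and 841 in MI+TRD. Fabp5, which macrophages express, had a ratio of 1.002 there. Cardiomyocyte markers summed to 31642 and 28652 there, with 0 of 9 past a p of 0.05. At 12 weeks they summed to 28578 to 48490 in MI and 23532 to 37415 in MI+TRD. Then 4 of 9 were lower and 0 higher at an unadjusted limma p below 0.05, against 19.1% and 2.80% of all genes. After adjustment 0 passed. The part of these cell types in the lower values of Tcf15, Meox2 and Fabp4 was not tested.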

How the data were processed

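Per the submitters' processing notes, Partek and the build rn6 were used; for aligner, counting, strand, scaling and statistical model, the sources used here give nothing. The first deposited values are a signal: normalized counts of each 12-week library, per the file headers. In each library 97.2% to 98.6% of values up to 20 times the smallest value were whole multiples of it within 0.1, so a value was read as reads plus 1 times that step. The authors also deposited, per the file headers, a p-value, step-up false discovery rate, ratio, signed fold change (a score, not used) and least-squares means per group for each week. No column lacked a sample.

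Genes whose mean share of the column totals, times the mean total, was at least 0.458 normalized counts (about 10 reads) were kept. The test was limma 3.58.1 (eBayes with trend, two-sided, Benjamini-Hochberg over all genes kept) on log2(value + 0.229), where 0.229 is 5 times the median value of 1 read. Inferred reads were tested with edgeR 4.0.16 and DESeq2 1.42.0, which gave 6892 genes an adjusted p. Relations were tested by 100000 permutations within groups. Only the limma fit was tested on simulated counts, which held no trend over gene span and no libraries standing apart. The 7 genes and the lists were chosen with earlier results of these data known. Genes named were the 7, 32 genes picked for their role, and the 5 most like Tcf15. Hif1a, Rbpj, Acsl4, Scarb1, Sdc1, Id2, Id4, Lipe, Robo4 and other markers were named after their values were seen. Lmf1 and Lipg, also picked, are not analysed here. The labels name no animals, so a p-value here measures only how these samples vary, which may be technical. The spans of the 7 genes overlapped no other gene in the table.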

Additional observations from a re-analysis of the deposited data

Results flagged for a closer look

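Cd36 in MI+TRD replicate 2 measured 233.4 normalized counts at 12 weeks, while the other 5 MI+TRD libraries measured 429 to 544. Its gap to the nearest library was over the 0.625 share of the group's range that marks an outlying value among 6. Such a gap appears by chance in about 1 of 20 groups, and 14 groups (7 genes in both groups) were examined.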

How the results depend on the processing

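Over 24 alternatives each, the relative 12-week differences kept their direction for all 7 genes except Fabp5, which was 0.34 without MI+TRD replicates 1, 4 and 5. Leaving out 1 library at a time gave −0.93 to −0.68 for Tcf15, −1.11 to −0.56 for Gpihbp1, −0.60 to −0.42 for Fabp4, −0.47 to −0.10 for Fabp5, 0.31 to 0.57 for Lpl, 0.43 to 0.70 for Cd36 and 0.12 to 0.31 for Meox2. The 6-week log2 ratio of Lpl was −0.01 as deposited and 0.0302 relative to all genes. DESeq2 called 18 genes over the whole table where limma called 0. Before adjustment (limma p under 0.05) the deposited scale gave 298 higher genes and 2034 lower ones (12.8% of these higher). The numbers were 797 and 877 (47.6%) with median ratios, 1207 and 412 (74.6%) with equal totals, 703 and 1042 (40.3%) with quantile normalization, 713 and 660 (51.9%) with the span trend removed, 849 and 742 (53.4%) with edgeR, 941 and 764 (55.2%) with DESeq2, and 284 and 1032 without MI+TRD replicates 1, 4 and 5. They were 190 to 347 and 1428 to 2323 without 1 library at a time. Of 47 pathway genes, 5 were higher and 2 lower with quantile normalization, 7 and 1 with the span trend removed, and 2 and 5 without MI+TRD replicates 1, 4 and 5. The span trend and the library median were added after seeing the data. The causes were not tested.

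Relations to Tcf15 that passed but did not under an alternative were, for Lpl, r = −0.60 with median ratios (permutation p adjusted 0.0619), −0.55 relative to the library median (0.112), −0.68 without MI+TRD replicates 1, 4 and 5 (0.187), −0.65 without MI+TRD replicate 6 (0.0596), −0.44 with the span trend removed (0.25) and −0.70 without the 2 libraries farthest from the median of Tcf15 (0.0531). For Meox2 they were −0.50 without replicates 1, 4 and 5 (0.277), −0.66 without replicate 6 (0.0508), −0.55 with the span trend removed (0.0634) and −0.56 without the 2 farthest (0.163). For Fabp4 and Fabp5, r was 0.63 and 0.51 without replicates 1, 4 and 5 (0.187 for both), 0.64 and 0.59 with the span trend removed (0.0831 and 0.229), and 0.67 and 0.57 without the 2 farthest (0.0914 and 0.0723). For Cd36, whose rho passed at 0.0461, the adjusted p of rho was 0.0944 with median ratios, 0.108 without replicates 1, 4 and 5, 0.0524 without replicate 6, 0.0535 without the 2 farthest and 0.424 with the span trend removed.

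Same-numbered libraries had correlations of −0.33 to 0.33, and replicates 2, 3, 4 and 5, but not 1 and 6, matched their own number best. The numbers were not taken as pairs. With the number as a replicate block, limma called 0 genes and 0 pathway genes, and before adjustment it gave 272 higher genes and 1833 lower ones.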
